A study of Mus musculus with 4 samples.

Results

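The genes described here are 45 genes of DNA replication and S phase. They were listed by name, from what their products do; the rule uses no measured value, although it was written with earlier results of these data known. They fall into 5 role groups: 15 genes of origin licensing and the replicative helicase, 19 of the polymerases and the fork, 3 of nucleotide synthesis, 3 of S phase entry and 5 of chromatin and checkpoint. The array annotation named 44 of the 45, out of 17097 genes in all; Chaf1a, the large subunit of chromatin assembly factor 1, was not named there and is not analysed here. Each gene was read from its brightest probe set on average, and all 44 genes lay above the floor of 3.19 log2 units (the 40th percentile of all genes over all arrays) on all 4 arrays.

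The arrays measured mouse embryonic stem cells, either Snai1 knockout or a control labelled F/F, that had been differentiated as embryoid bodies, which are floating aggregates grown first as hanging drops. The aggregates were dissociated and separated with an antibody to Flk1, a receptor for vascular endothelial growth factor that marks mesoderm able to form blood and vessels. The 4 groups were knockout Flk1+, control Flk1+, knockout Flk1- and control Flk1- cells, at day 4 of differentiation, with 1 array each. One label of the knockout Flk1- sample gives day 5 and another gives day 4, so for that array day and group cannot be told apart. The sources used here do not say how the knockout was made, from which strain, or whether each line was 1 clone or a pool. With 1 array per group no difference has a replicate check, and no test was run.

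Chromosomal DNA is copied once per cell cycle. In G1 the origin recognition complex, with Cdc6 and Cdt1, loads the Mcm helicase onto origins, and at the start of S phase Cdc45 and the GINS complex convert it into a working helicase, behind which primase and the polymerases, held by the Pcna clamp, make new strands from nucleotides that ribonucleotide reductase and thymidylate synthase supply. Many of these genes are transcribed in late G1 and S phase under E2F transcription factors, and mouse embryonic stem cells, which have a short G1, spend much of their cycle in S phase.

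The start regions of these genes are shown first, because E2F factors are known to act on many of these genes there. Promoters were taken from RefSeq on GRCm38.p6 as the 300 bases from 250 before to 50 after a gene's start, and 38 of the 45 genes had an entry, matched by symbol; Mcm4, Gins1, Gins2, Rfc2, Prim2, Pole and Ccne2 had none. The 4 printed are the start regions of the gene that differed most between the groups, by the difference of differences defined below, in each of 4 role groups. They are Pole2 at chr12:69228141-69228440 on the minus strand, Hells at chr19:38930740-38931039 on the plus strand, Orc1 at chr4:108579204-108579503 on the plus strand and Tyms at chr5:30073576-30073875 on the minus strand. Each reads 5′ to 3′ along the gene's own strand, and capitals mark E2F-type words.
Pole2: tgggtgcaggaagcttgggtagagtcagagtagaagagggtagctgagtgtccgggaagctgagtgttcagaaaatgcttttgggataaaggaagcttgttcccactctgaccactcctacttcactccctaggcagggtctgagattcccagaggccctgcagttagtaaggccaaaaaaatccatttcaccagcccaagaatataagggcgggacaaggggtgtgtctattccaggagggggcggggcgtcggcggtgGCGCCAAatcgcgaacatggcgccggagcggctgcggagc
Hells: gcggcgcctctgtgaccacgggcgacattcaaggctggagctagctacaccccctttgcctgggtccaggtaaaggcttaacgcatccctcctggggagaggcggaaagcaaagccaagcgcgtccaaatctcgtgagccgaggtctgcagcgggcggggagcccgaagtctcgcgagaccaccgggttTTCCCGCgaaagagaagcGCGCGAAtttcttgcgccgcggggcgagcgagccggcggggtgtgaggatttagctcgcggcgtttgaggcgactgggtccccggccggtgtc
Orc1: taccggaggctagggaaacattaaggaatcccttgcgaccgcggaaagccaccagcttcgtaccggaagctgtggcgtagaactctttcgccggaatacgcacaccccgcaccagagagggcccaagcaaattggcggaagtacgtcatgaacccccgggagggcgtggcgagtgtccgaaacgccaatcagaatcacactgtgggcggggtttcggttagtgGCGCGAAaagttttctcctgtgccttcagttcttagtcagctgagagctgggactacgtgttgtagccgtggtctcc
Tyms: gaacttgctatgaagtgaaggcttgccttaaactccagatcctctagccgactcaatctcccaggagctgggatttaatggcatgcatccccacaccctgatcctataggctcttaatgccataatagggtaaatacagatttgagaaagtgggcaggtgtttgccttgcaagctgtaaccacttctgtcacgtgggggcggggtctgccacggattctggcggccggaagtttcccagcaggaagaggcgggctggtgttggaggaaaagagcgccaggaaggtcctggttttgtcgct

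The E2F-type words searched, on either strand, were TTCCCGC, its variant TTCGCGC, the word TTGGCGC and lastly TTGCCGC, so that the capitals in Pole2 and Orc1 and the second run in Hells are words read on the other strand. At least 1 such word stood in 23 of the 38 members' promoters (60.5%), against 9.69% of the promoters of all 27025 genes in the table. That wider set includes genes below the floor, unlike the members on the array. Of the genes above the floor on at least 1 array with an entry, 1534 held a word and 7333 did not. By role it stood in 8 of 12 origin and helicase genes, 9 of 16 polymerase and fork genes, 2 of 3 nucleotide synthesis genes, 0 of 2 S phase entry genes and 4 of 5 chromatin and checkpoint genes. The members' promoters held 42 such words in all, 30 of them between 100 bases before and 50 bases after the start, with a median position of 33 bases before it (-33). Words that overlap on opposite strands were counted separately, so the number of distinct sites is smaller. Mcm6, a helicase subunit, held 5 words and Pola1, the catalytic subunit of polymerase alpha, held 4. In Mcm6 the words starting at -109 and -106 overlap, as do those at -46 and -43. TTCCCGC was the most common, in 39.5% of members' promoters and 4.66% of all promoters.

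E2F-type words also stood in 14 of 33 promoters of other replication genes (42.4%), 10 of 19 of G1 regulators and E2F family genes (52.6%), 6 of 17 of other nucleotide enzymes (35.3%) and 3 of 8 of reference genes (37.5%). They stood in 3 of 26 promoters of G2 and M phase genes (11.5%). TTTGAA, the word of the cell cycle homology region found in many mitotic genes, was in 4 of 38 members' promoters (10.5%), 18 of 26 G2 and M phase promoters (69.2%) and 18.1% of all promoters. CCAAT, the core bound by the factor NF-Y, was in 63.2% of members' promoters, 84.6% of G2 and M phase promoters and 37.9% of all. In the members 5 of the 42 E2F-type words overlapped a CCAAT. A match describes letters and not binding, and the absence of one, as in Tyms, says only that these letters are not in this window.

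**Figure D1:**
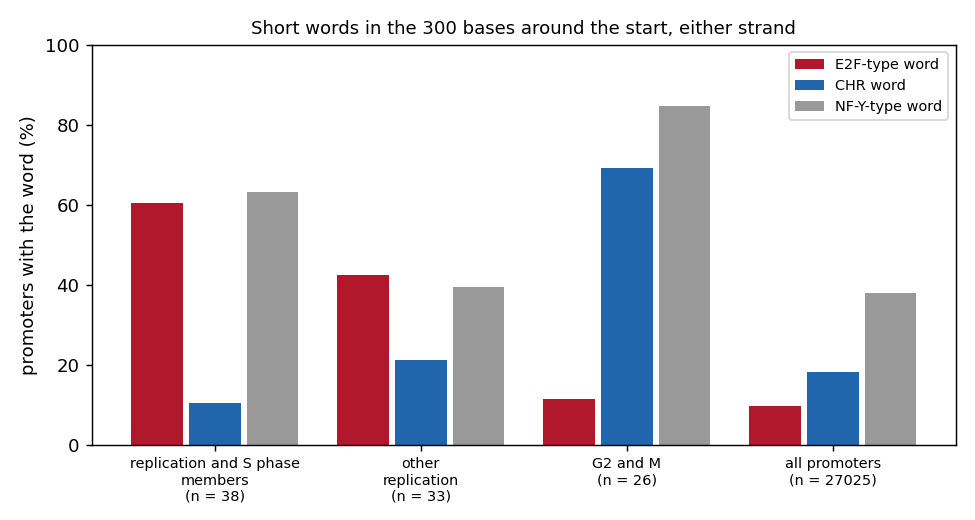
Share of promoters (percent, y axis) that hold at least 1 E2F-type, cell cycle homology region (CHR) or NF-Y-type word on either strand, for 38 replication and S phase genes, 33 other replication genes, 26 G2 and M phase genes and all 27025 genes. E2F-type words stood in 60.5% of the members' promoters and 9.69% of all promoters, which include those of genes below the floor.

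The replication and S phase genes were mostly lowest in knockout Flk1+ cells and highest in knockout Flk1- cells. Of the 44, 32 had their lowest value on the knockout Flk1+ array (34.5% of the 10955 genes above the floor did), 35 had their highest on the knockout Flk1- array (36.9% of all genes), and 29 had both (18.2%). The control values of both fractions usually lay between them. Under 3 other scalings of the arrays, 25 or 26 members were lowest in knockout Flk1+ cells (22.0% to 27.0% of all genes) and from 29 to 32 were highest in knockout Flk1- cells (24.6% to 32.9%). In RNA from bulk cells, fewer cells of a type and less RNA per cell cannot be told apart.

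**Figure D2:**
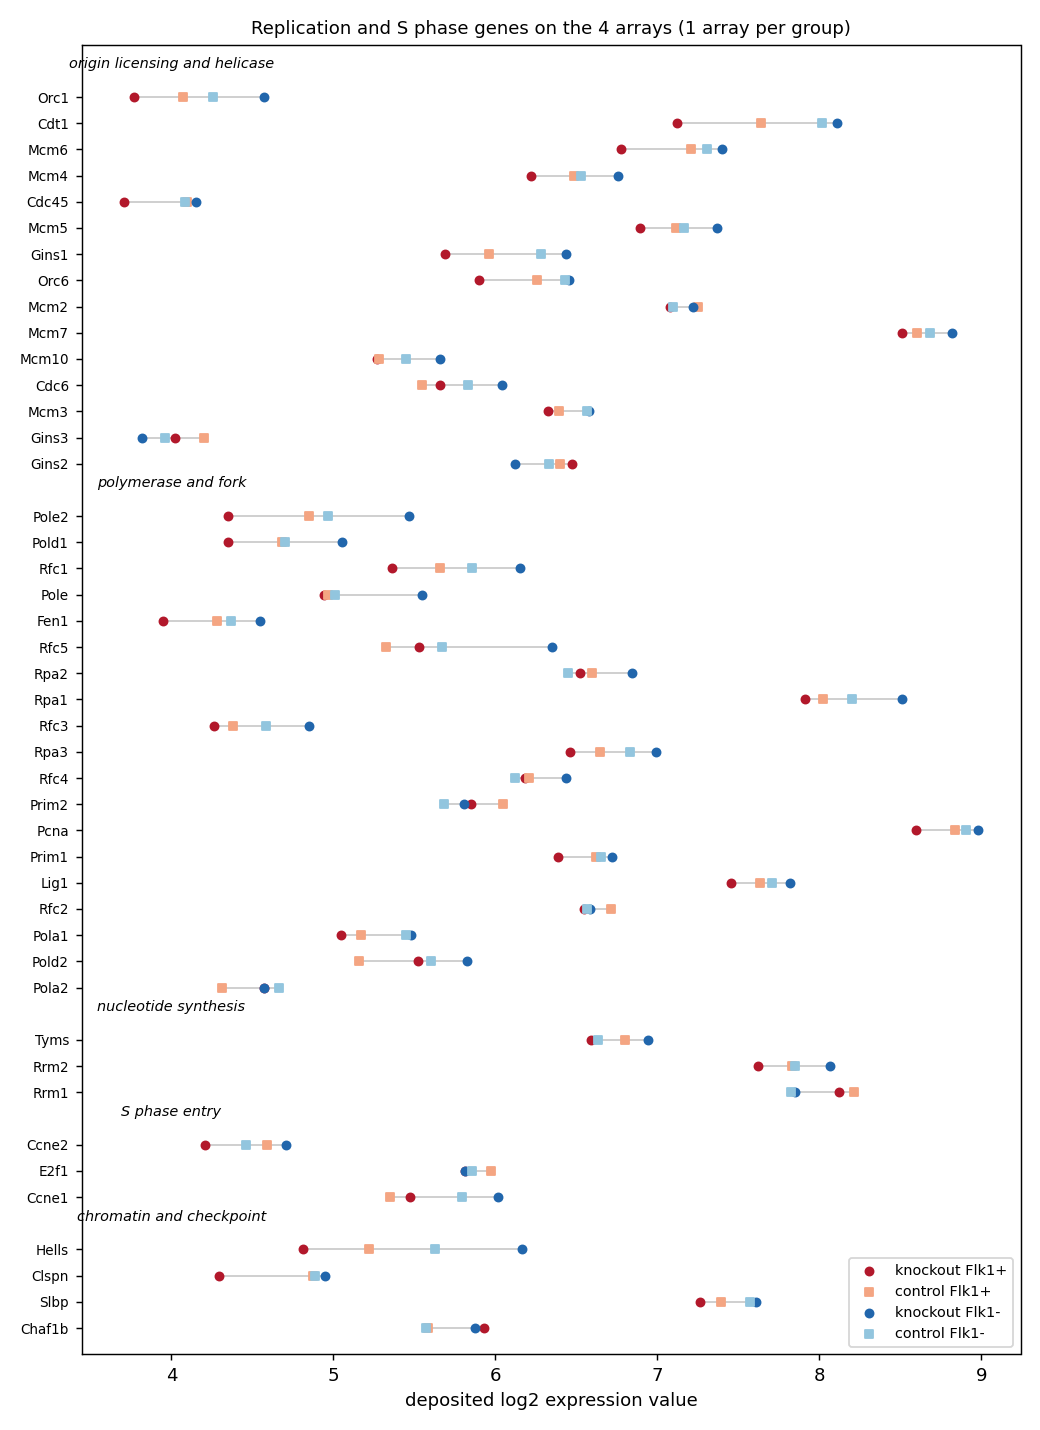
Deposited log2 expression value (x axis) of the 44 genes (rows, by role group, ordered within a group by the difference of differences) on the 4 arrays, 1 point per array, with a grey line from the lowest to the highest. The dark red point of knockout Flk1+ cells was lowest for 32 of 44 genes and the dark blue point of knockout Flk1- cells was highest for 35 of 44.

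Among the origin licensing and helicase genes, Orc1, the largest subunit of the origin recognition complex, was at 3.77 in knockout and 4.07 in control Flk1+ cells, and 4.57 in knockout and 4.25 in control Flk1- cells. Cdt1, which brings the helicase to the origin, was at 7.12 in knockout and 7.64 in control Flk1+ cells, and 8.11 in knockout and 8.02 in control Flk1- cells. Both were lowest in knockout Flk1+ cells and highest in knockout Flk1- cells. Mcm6 was at 6.77 in knockout and 7.21 in control Flk1+ cells, and 7.40 in knockout and 7.31 in control Flk1- cells. Mcm4, another helicase subunit, was at 6.22 in knockout and 6.49 in control Flk1+ cells, and 6.76 in knockout and 6.53 in control Flk1- cells. For Mcm6 the knockout Flk1+ value lay apart from the other arrays, and for Mcm4 the control values lay between the knockout values. Orc1 had a second probe set above the floor, which ran the other way in the genotype comparison between fractions (a difference of differences of 0.21, against -0.62 for the one read), so its pattern rests on 1 probe set.

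The other 11 genes of this group were Mcm2, Mcm3, Mcm5, Mcm7, Mcm10, Cdc6, Cdc45, Gins1, Gins2, Gins3 and Orc6. By the probe sets read, the helicase subunits differed little. Mcm2, Mcm3, Mcm5 and Mcm7 were from 0.07 to 0.22 lower in knockout than in control Flk1+ cells. They were from 0.01 to 0.20 higher in knockout than in control Flk1- cells. For Mcm2 a second probe set, about as bright, was higher in the knockout in both fractions, by 0.27 in Flk1+ and 0.16 in Flk1- cells. Its difference of differences was 0.11, against -0.29 for the one read. Less bright second probe sets above the floor gave genotype differences of -0.37 in Flk1+ and 0.12 in Flk1- cells for Mcm3. For Mcm7 they gave -0.05 and 0.30. Cdc45 and Orc6 differed by -0.39 and -0.35 between knockout and control Flk1+ cells and by 0.07 and 0.03 in Flk1- cells, Mcm10, a helicase partner, by -0.01 and 0.21, and Cdc6 by 0.11 and 0.21. The GINS subunits differed among themselves. Gins1 was at 5.69 in knockout and 5.96 in control Flk1+ cells, and 6.43 in knockout and 6.28 in control Flk1- cells. Gins2 was at 6.47 in knockout and 6.40 in control Flk1+ cells, and 6.12 in knockout and 6.33 in control Flk1- cells, the reverse order. That order rests on 1 probe set. The second one above the floor was lower in the knockout in both fractions, by -0.30 in Flk1+ and -0.19 in Flk1- cells. Gins3 was at 4.02 in knockout and 4.20 in control Flk1+ cells, and 3.82 in knockout and 3.96 in control Flk1- cells, lower in the knockout in both fractions.

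Among the polymerase and fork genes, Pole2, an accessory subunit of the leading strand polymerase epsilon, was at 4.35 in knockout and 4.85 in control Flk1+ cells, and 5.47 in knockout and 4.97 in control Flk1- cells. Its knockout values lay equally far below and above the control values. Pole, the catalytic subunit of the same enzyme, was at 4.94 in knockout and 4.97 in control Flk1+ cells, and 5.55 in knockout and 5.01 in control Flk1- cells, so that 3 arrays were alike and knockout Flk1- was high. Pold1, the catalytic subunit of the lagging strand polymerase delta, was at 4.35 in knockout and 4.68 in control Flk1+ cells, and 5.05 in knockout and 4.70 in control Flk1- cells. In Pold1 the 2 control values were nearly equal and the knockout values lay on either side of them. A second Pole2 probe set lay below the floor and had a difference of differences of 0.11.

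The clamp loader, which places Pcna on primed DNA, was represented by all 5 subunits. Rfc1, its largest subunit, was at 5.36 in knockout and 5.66 in control Flk1+ cells, and 6.15 in knockout and 5.86 in control Flk1- cells. Its other probe set above the floor gave nearly the same difference of differences. Rfc5 was at 5.53 in knockout and 5.32 in control Flk1+ cells, and 6.35 in knockout and 5.67 in control Flk1- cells. By the probe sets read, Rfc5 was the only member at least 1.5-fold apart between genotypes, 0.68 higher in knockout than in control Flk1- cells. Unlike Rfc1, it was also higher in the knockout in Flk1+ cells, by 0.20. Rfc2, Rfc3 and Rfc4 were from 0.03 to 0.17 lower in knockout than in control Flk1+ cells and from 0.02 to 0.31 higher in knockout than in control Flk1- cells. Other probe sets above the floor differed from these. For Rfc4 the genotype differences were -0.59 in Flk1+ and 0.17 in Flk1- cells, and for Rfc3 they were 0.11 and -0.03. For Rfc2 they were -0.34 and 0.03 in one, and -0.07 and -0.03 in another. The clamp itself, Pcna, was at 8.60 in knockout and 8.84 in control Flk1+ cells, and 8.98 in knockout and 8.91 in control Flk1- cells.

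The remaining fork genes encode primase and polymerase alpha (Prim1, Prim2, Pola1, Pola2), a polymerase delta subunit (Pold2), the single-strand binding protein (Rpa1, Rpa2, Rpa3), the flap nuclease Fen1 and the ligase Lig1. Fen1 was at 3.95 in knockout and 4.28 in control Flk1+ cells, and 4.55 in knockout and 4.37 in control Flk1- cells. Rpa1 was at 7.91 in knockout and 8.02 in control Flk1+ cells, and 8.51 in knockout and 8.20 in control Flk1- cells. Both kept the order seen in Orc1 and Rfc1. Prim1, Prim2, Pola1, Rpa2, Rpa3 and Lig1 were from 0.08 to 0.24 lower in knockout than in control Flk1+ cells and from 0.03 to 0.39 higher in knockout than in control Flk1- cells. A second Prim1 probe set, nearly as bright, gave genotype differences of -0.45 in Flk1+ and 0.37 in Flk1- cells. Its difference of differences was -0.82, against -0.30 for the one read. Pola2, the second subunit of polymerase alpha, was at 4.57 in knockout and 4.31 in control Flk1+ cells, and 4.57 in knockout and 4.66 in control Flk1- cells. Pola2 was thus higher in the knockout in Flk1+ cells and lower in it in Flk1- cells. Pold2 was at 5.53 in knockout and 5.16 in control Flk1+ cells, and 5.83 in knockout and 5.60 in control Flk1- cells, higher in the knockout in both fractions.

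In nucleotide synthesis, Tyms, thymidylate synthase, was at 6.59 in knockout and 6.80 in control Flk1+ cells, and 6.94 in knockout and 6.63 in control Flk1- cells. Rrm2, the small subunit of ribonucleotide reductase, was at 7.62 in knockout and 7.83 in control Flk1+ cells, and 8.07 in knockout and 7.85 in control Flk1- cells. Both were lowest in knockout Flk1+ and highest in knockout Flk1- cells. Rrm1, the large subunit, was at 8.12 in knockout and 8.21 in control Flk1+ cells, and 7.85 in knockout and 7.82 in control Flk1- cells, so that it followed the Flk1 fraction more than the genotype.

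In S phase entry, Ccne2, which encodes cyclin E2, an activator of Cdk2 at the start of S phase, was at 4.21 in knockout and 4.59 in control Flk1+ cells, and 4.71 in knockout and 4.46 in control Flk1- cells. E2f1, an activating E2F factor, was at 5.81 in knockout and 5.98 in control Flk1+ cells, and 5.81 in knockout and 5.86 in control Flk1- cells, with 3 arrays nearly level. Its second probe set had knockout minus control differences of -0.53 in Flk1+ and -0.82 in Flk1- cells, against -0.16 and -0.04 for the one read, and its difference of differences, at 0.28, had the other sign. Ccne1, cyclin E1, was at 5.48 in knockout and 5.35 in control Flk1+ cells, and 6.02 in knockout and 5.79 in control Flk1- cells, higher in the knockout in both fractions.

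In the chromatin and checkpoint group, Hells, a chromatin remodelling ATPase needed for DNA methylation, was at 4.81 in knockout and 5.22 in control Flk1+ cells, and 6.17 in knockout and 5.63 in control Flk1- cells. Clspn, which links stalled forks to the checkpoint kinase Chk1, was at 4.30 in knockout and 4.87 in control Flk1+ cells, and 4.95 in knockout and 4.89 in control Flk1- cells. Clspn was thus lower on the knockout Flk1+ array and close together on the other arrays. The 3 probe sets of Hells, of which 2 were above the floor, gave differences of differences from -0.95 to 0.09. The second one above the floor was higher in the knockout in both fractions, by 0.17 in Flk1+ and 0.60 in Flk1- cells. Slbp, which binds the stem-loop of histone mRNAs, was at 7.26 in knockout and 7.39 in control Flk1+ cells, and 7.61 in knockout and 7.57 in control Flk1- cells. Chaf1b, the middle subunit of chromatin assembly factor 1, was at 5.93 in knockout and 5.58 in control Flk1+ cells, and 5.88 in knockout and 5.57 in control Flk1- cells, higher in the knockout in both fractions.

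The first comparison asked how the genotype differed within Flk1+ cells. The replication genes were lower in the knockout, with a median difference of -0.18 on the log2 scale (interquartile range -0.30 to -0.07), beside -0.05 for all 10655 genes. Of the 44 genes, 37 were lower (57.4% of all genes were), and 7 were higher (42.5%). The shift was shallow: 0 of 44 members were at least 1.5-fold lower (4.42% of all genes) and 0 were at least 1.5-fold higher (3.26%), with Clspn, at -0.58, nearest the 1.5-fold mark, which is 0.585 on the log2 scale. All 3 nucleotide synthesis genes, 13 of 15 origin and helicase genes and 16 of 19 polymerase and fork genes were lower.

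In Flk1- cells the same comparison ran the other way. The median difference was 0.17 (interquartile range 0.07 to 0.30), beside 0.04 for all 10533 genes, and 40 of 44 genes were higher in the knockout (56.8% of all genes). Only Rfc5 was at least 1.5-fold higher (2.97% of all genes), and 0 were at least 1.5-fold lower (2.53%). Pole and Hells, each 0.54 higher, and Pole2, 0.50 higher, came next. The 4 genes lower in the knockout (43.1% of all genes were) were Gins2, Gins3, Pola2 and E2f1, named after their values were seen. This comparison rests on the array whose labels give both days.

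No array is shared between the genotype comparisons of the 2 fractions. Lower in the knockout in Flk1+ cells and higher in it in Flk1- cells were 35 of 44 members, beside 30.3% of all genes. By role these were 12 of 15 origin and helicase genes, 16 of 19 polymerase and fork genes, 3 of 3 nucleotide synthesis genes, 1 of 3 S phase entry genes and 3 of 4 chromatin and checkpoint genes. Of the remaining genes, Cdc6, Rfc5, Pold2, Ccne1 and Chaf1b were higher in the knockout in both fractions, Gins3 and E2f1 were lower in both, and Gins2 and Pola2 were higher in Flk1+ and lower in Flk1- cells. These signs depend in part on how the arrays are scaled: after a second quantile normalization, after centring and after cyclic loess, 27, 26 and 26 members kept the opposite pattern, beside 25.7%, 19.8% and 25.4% of all genes. Members near 0 changed sign under at least 1 of these scalings, 5 in Flk1+ cells and 6 in Flk1- cells.

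**Figure D3:**
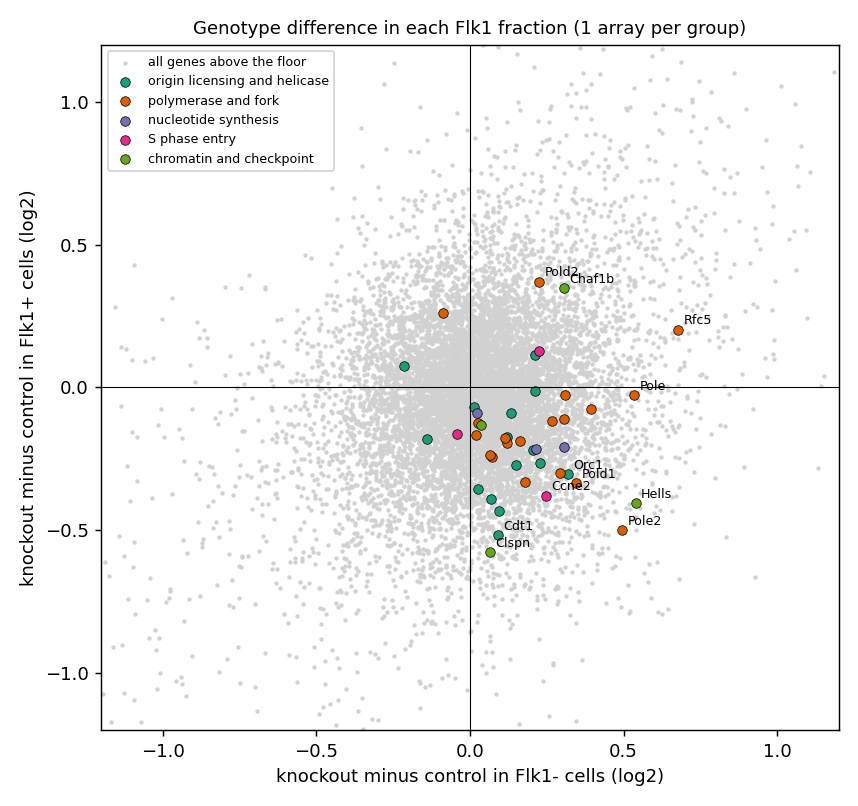
Knockout minus control in Flk1+ cells (log2, y axis) against the same in Flk1- cells (log2, x axis) for the 44 genes, coloured by role group, over the genes above the floor in grey. Most members, 35 of 44, lie at the lower right, and genes beyond the axis limits are not drawn.

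The difference of differences takes knockout minus control in Flk1+ cells and subtracts knockout minus control in Flk1- cells, which is equally the Flk1+ minus Flk1- difference of the knockout minus that of the control. It uses all 4 arrays. Its median was -0.37 (interquartile range -0.51 to -0.16), beside -0.07 for all 10955 genes, and 40 of 44 members were below 0 (58.7% of all genes). By at least 1.5-fold, 8 members (18.2%) lay below 0, beside 6.95% of all genes, and 0 lay above (3.93%). The 8 were Pole2 (-0.99), Hells (-0.95), Pold1 (-0.68), Clspn (-0.64), Ccne2 (-0.63), Orc1 (-0.62), Cdt1 (-0.61) and Rfc1 (-0.60). Pola2 (0.35), Gins2 (0.29), Pold2 (0.14) and Chaf1b (0.04) were the 4 above 0 (41.3% of all genes), again named after their values were seen. The second Gins2 probe set above the floor lay at -0.11. With probe sets averaged per gene 3 of 44 members lay below 0 by 1.5-fold (4.85% of all genes), and after centring 2 did (4.02% of all genes), so after centring the members passed this mark about as often as all genes.

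Flk1+ cells were next set against Flk1- cells within each genotype. In the knockout the median difference of the replication genes was -0.43 (interquartile range -0.60 to -0.29), beside -0.08 for all 10688 genes, and 39 of 44 were lower in Flk1+ cells (58.6% of all genes) and 5 were higher (41.4%). At least 1.5-fold lower were 14 members (31.8%), beside 10.6% of all genes, and 0 were at least 1.5-fold higher (4.35%). Hells was 2.56-fold lower (-1.35) and Pole2 was 2.16-fold lower (-1.11), the only members past 2-fold (2.17% of all genes). The other 12 were Cdt1 (-0.98), Rfc5 (-0.82), Orc1 (-0.80), Rfc1 (-0.79), Gins1 (-0.74), Pold1 (-0.70), Clspn (-0.65), Mcm6 (-0.63), Pole, Rpa1, Fen1 and Rfc3, the last 4 from -0.60 to -0.59.

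In control cells the separation was smaller. The median difference was -0.08 (interquartile range -0.19 to 0.03), beside -0.01 for all 10622 genes, and 31 of 44 members were lower in Flk1+ cells (51.7% of all genes) and 13 were higher (48.2%). No member was 1.5-fold apart: 0 were lower (4.76% of all genes) and 0 were higher (3.48%). The member furthest below 0 was Pold2 (-0.45) and the one furthest above was Rrm1 (0.39). Hells, 2.56-fold lower in knockout cells, differed by -0.41 here, with 5.22 in Flk1+ and 5.63 in Flk1- cells. The knockout and control sort comparisons share no array, and the difference between them, the difference of differences above, was not tested.

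A smaller step shows more of the members. Past 0.32 on the log2 scale, 10 members were lower (15.3% of all genes) and 2 were higher (9.60%) in knockout than in control Flk1+ cells. In Flk1- cells 6 members (13.6%) were higher in the knockout, near the 12.2% of all genes, and 0 were lower (8.28%). Between the knockout fractions, 30 of 44 members were lower in Flk1+ cells (26.0%) and 1 was higher (12.5%), so as deposited most members passed this step there. After quantile normalization, centring and loess the members' median there was -0.31, -0.29 and -0.31, short of this step. Between the control fractions 6 members (13.6%) were lower, near the 13.3% of all genes, and 2 were higher (10.3%). In the difference of differences 24 were below 0 (22.3%) and 1 above (12.6%). At 2-fold, 0 members passed in the difference of differences (0.831% of all genes below 0) and 0 were higher in knockout than in control Flk1- cells (0.389%).

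Scaling moved the whole distribution in the knockout sort comparison: the median of all genes was -0.08 as deposited and 0.09 after each array was centred on the median of its genes above the floor. Set against the median of all genes, the members were -0.36 apart as deposited and from -0.37 to -0.29 apart under the 3 other scalings. For the difference of differences the same gap was -0.30 as deposited and from -0.30 to -0.23 under those scalings. The number at least 1.5-fold lower in knockout Flk1+ than in knockout Flk1- cells was 14 as deposited, 8 after quantile normalization (7.47% of all genes), 7 after centring (5.76%) and 7 after loess (7.61%). Centring also turned the split of all genes past 1.5-fold, to 5.76% lower and 7.54% higher.

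Genes with related work were compared to see how far these differences reached. The lists were fixed from function, with earlier results of these data known. Of 39 other replication genes 30 were above the floor, and their medians ran close to the members': -0.17 in Flk1+ cells and 0.11 in Flk1- cells for knockout minus control, and -0.44 in the knockout and -0.12 in the control for Flk1+ minus Flk1-. Dna2, a nuclease and helicase that trims Okazaki fragments, was at 4.02 in knockout and 4.82 in control Flk1+ cells, and 5.22 in knockout and 5.12 in control Flk1- cells. Tipin, a fork protection factor, was at 6.30 in knockout and 6.73 in control Flk1+ cells, and 7.27 in knockout and 6.90 in control Flk1- cells. Orc4, an origin recognition subunit, was at 4.61 in knockout and 5.03 in control Flk1+ cells, and 5.44 in knockout and 5.20 in control Flk1- cells. All 3 had the order of Orc1 and Rfc1. In the knockout sort comparison 26 of the 30 were lower in Flk1+ cells (58.6% of all genes) and 8 were at least 1.5-fold lower (10.6% of all genes).

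The 15 other nucleotide enzymes had a median of -0.32 for Flk1+ minus Flk1- in the knockout, with 12 lower (58.6% of all genes). This median was -0.20 after quantile normalization and -0.17 after centring. Furthest from 0 were Mthfd1, a folate enzyme (-0.94), Dck, deoxycytidine kinase (-0.68), and Dut, which removes dUTP (-0.66). A second Dut probe set was level between these arrays. Their genotype difference in Flk1+ cells had a median of -0.05, with 7 higher and 8 lower (42.5% and 57.4% of all genes). It turned to between 0.0084 and 0.043 under the 3 other scalings. In Flk1- cells their median was 0.15, with 13 of 15 higher in the knockout (56.8% of all genes), and from 0.098 to 0.12 under those scalings.

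Genes of G2 and M phase were split. Of 31 above the floor, 15 were lower and 16 higher in knockout Flk1+ than in knockout Flk1- cells (58.6% and 41.4% of all genes). Their median was 0.02 as deposited and from 0.10 to 0.17 under the other scalings. Bub1, a spindle checkpoint kinase (-0.64), Nek2 (-0.49) and Aurkb (-0.46), mitotic kinases, were furthest from 0. Bub1 was the only gene of the list at least 1.5-fold lower (10.6% of all genes). Further probe sets gave -0.80 for Nek2 and -0.03 for Aurkb. In control cells the median of the G2 and M phase genes was 0.11, with 22 higher (48.2% of all genes). Their genotype medians were -0.10 in Flk1+ cells and 0.08 in Flk1- cells, with 21 of 31 lower in the first (57.4% of all genes) and 21 of 31 higher in the second (56.8%), and their difference of differences had a median of -0.16. Under the other scalings these medians shrank, to between -0.034 and -0.017 in Flk1+ cells, between 0.026 and 0.044 in Flk1- cells and between -0.060 and -0.039 for the difference of differences. The gap between the members and the mitotic genes was not tested.

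Among 22 G1 regulators and E2F family genes above the floor, the median of Flk1+ minus Flk1- in the knockout was -0.21. Of these, 14 were lower and 8 higher (58.6% and 41.4% of all genes). This median depended on the scaling, at -0.13 after quantile normalization and -0.0094 after centring. Cdkn1c, an inhibitor of cyclin-dependent kinases, was at 7.36 in knockout and 7.84 in control Flk1+ cells, and 5.96 in knockout and 7.62 in control Flk1- cells, so it was low only on the array where most members were highest. E2f8, a repressing E2F factor, was at 4.70 in knockout and 5.52 in control Flk1+ cells, and 5.91 in knockout and 5.77 in control Flk1- cells, lowest in knockout Flk1+ cells like the members, although its second probe set differed less (-0.35 against -1.21 between the knockout fractions). Myc, a growth-promoting transcription factor, was at 7.09 in knockout and 7.86 in control Flk1+ cells, and 5.99 in knockout and 6.76 in control Flk1- cells. Myc was thus lower in the knockout in both fractions by the same amount (-0.77 in each) and higher in Flk1+ cells in both genotypes.

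**Figure D4:**
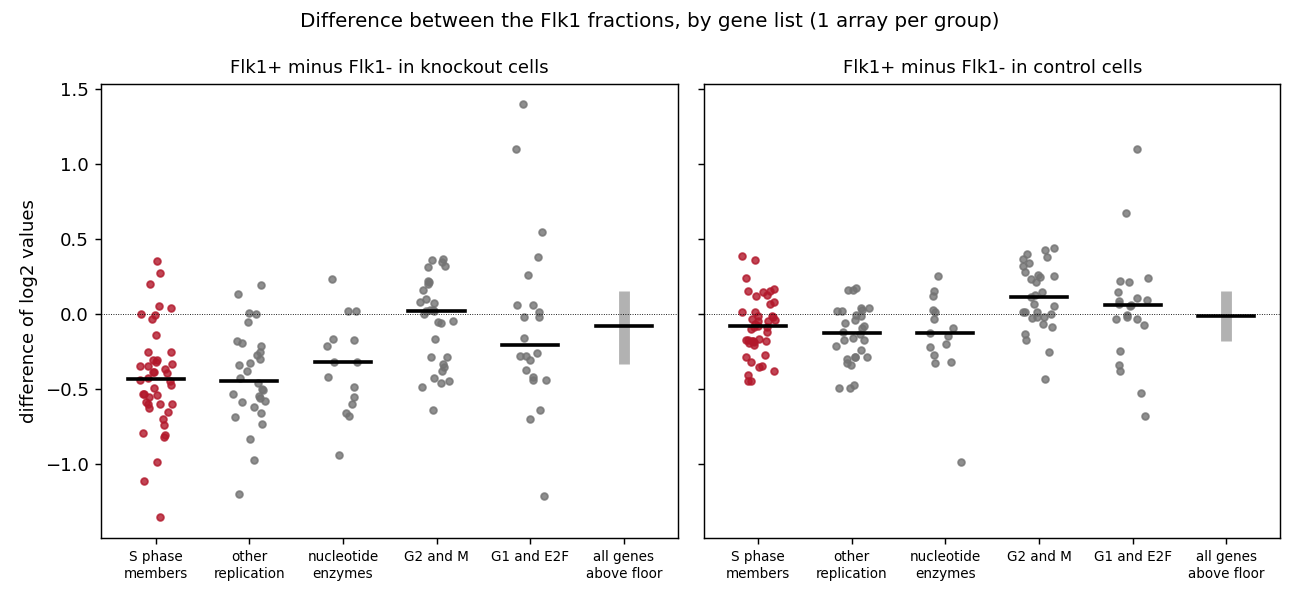
Difference of log2 values (y axis), Flk1+ minus Flk1-, in knockout cells (left) and control cells (right) for the members and for 4 other lists, 1 dot per gene above the floor; black lines are medians and the grey bar is the interquartile range of all genes above the floor. The members' median was -0.43 in knockout cells and -0.08 in control cells, and that of G2 and M phase genes was 0.02 and 0.11.

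Promoter letters and expression were then set side by side. Of members above the floor with a promoter entry, the 22 with an E2F-type word had a median difference of differences of -0.41, with 21 below 0, and the 15 without one had a median of -0.29, with 13 below 0. Over all genes above the floor with an entry the median was -0.11 with a word, with 968 of 1534 below 0. Without a word it was -0.07, with 4261 of 7333 below 0. A link between the words and the difference was not tested.

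Other probe sets of the same genes gave a further reading on the same arrays. Of the members, 21 had 23 further probe sets above the floor. For Flk1+ minus Flk1- in the knockout, 21 of these 23 had the sign of the probe set read, with a median of -0.41. For the genotype differences, 17 of 23 did in Flk1+ cells, with a median of -0.13, and 20 of 23 did in Flk1- cells, with a median of 0.16. For the difference of differences it was 18 of 23, with a median of -0.32. Over all genes with several probe sets, the SD between the probe sets of a gene was 0.23 and 0.19 for the genotype differences in Flk1+ and Flk1- cells, 0.28 and 0.21 for the sort differences in knockout and control cells, and 0.30 for the difference of differences. This spread describes single probe sets, is no error of a median over 44 genes and is no spread between cultures.

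**Figure D5:**
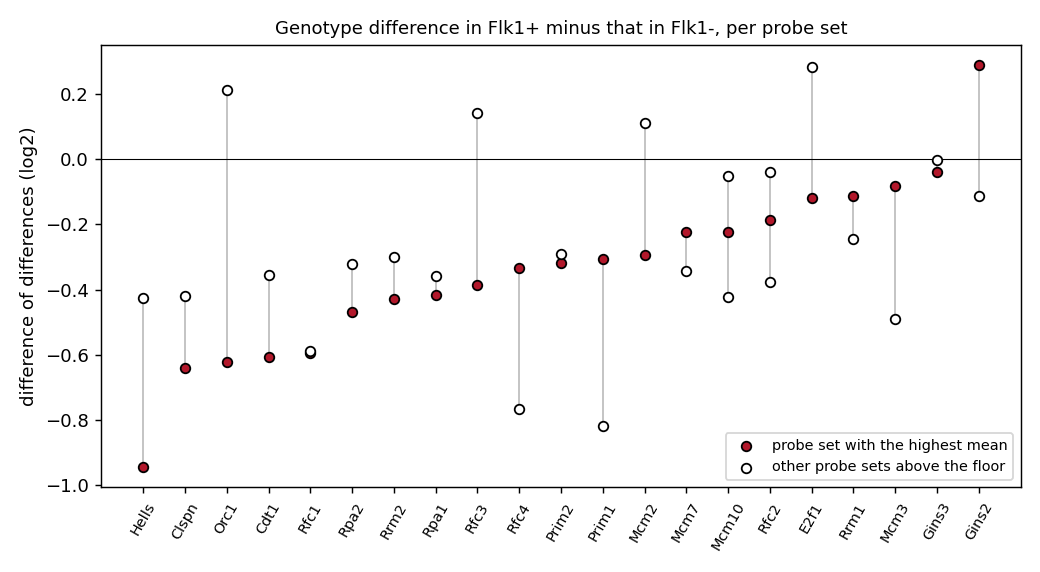
Difference of differences (log2, y axis) for each probe set above the floor of the 21 members that have more than 1 (x axis, by gene), with the probe set read in red and the others in white. Of the 23 other probe sets 19 lie below 0, and those of Orc1, Rfc3, Mcm2 and E2f1 lie above it.

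Facts of the arrays that moved with these groups are as follows. Kdr, which encodes Flk1, was at 9.03 in knockout and 8.92 in control Flk1+ cells, and 3.88 in knockout and 4.55 in control Flk1- cells, as the sort labels say, whereas Snai1 was below the floor on all 4 arrays (at 1.88 in knockout and 2.56 in control Flk1+ cells, and 1.94 in knockout and 2.42 in control Flk1- cells) and does not check the genotype labels. For Gapdh, the 3′ control probe set minus the 5′ one, which reads how far the amplified cDNA reaches, was 1.47 in knockout and 2.05 in control Flk1+ cells, and 1.99 in knockout and 1.76 in control Flk1- cells, and that of Actb was at -0.32 in knockout and -0.06 in control Flk1+ cells, and -0.03 in knockout and -0.14 in control Flk1- cells. Both were lowest on the array where most members were lowest, and the part of RNA quality in the members' values was not tested. Of 8 reference genes the median differences were between -0.08 and 0.00 in the 4 comparisons, but Hprt, a purine salvage enzyme, was at 5.98 in knockout and 6.47 in control Flk1+ cells, and 7.38 in knockout and 7.22 in control Flk1- cells.

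Markers of other cell types also moved. The 11 pluripotency markers named summed to 399.5 linear units in knockout and 156.8 in control Flk1+ cells, and to 1719 in knockout and 1012 in control Flk1- cells. Above the floor were 8 of them in knockout and 6 in control Flk1+ cells and all 11 in both Flk1- groups, with Zfp42, Esrrb and Fbxo15 below it on both Flk1+ arrays. Their sums were thus higher in the knockout in both fractions, whereas most members were lower in it in Flk1+ cells. The 7 primitive erythroid markers named summed to 47.0 in knockout and 148.6 in control Flk1+ cells, and to 51.0 in knockout and 2862 in control Flk1- cells. Above the floor were 2 in knockout and 5 in control Flk1+ cells, and 2 in knockout and 7 in control Flk1- cells, with the embryonic globin genes Hba-x, Hbb-bh1 and Hbb-y below it on both knockout arrays. Control Flk1- cells therefore held most of this signal.

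The 12 hemato-endothelial markers summed to 1187 in knockout and 1240 in control Flk1+ cells, and to 140.9 in knockout and 182.2 in control Flk1- cells. All 12 were above the floor in both Flk1+ groups, against 7 in knockout and 6 in control Flk1- cells, with Etv2, Tal1, Fli1, Erg and Sox18 below it on both Flk1- arrays. The sums include Kdr, the antigen of the sort. Gene by gene, 7 of the 12 were lower and 5 higher in knockout than in control Flk1+ cells (57.4% and 42.5% of all genes). Lower by more than 0.32 were Tek (-0.86), Pecam1 (-0.56), Erg (-0.56), Tal1 (-0.49) and Cdh5 (-0.33) (15.3% of all genes). The 5 higher, Kdr, Etv2, Fli1, Egfl7 and Gata2, differed by 0.03 to 0.15, with 0 past 0.32 (9.60% of all genes). Pecam1 was also lower in knockout Flk1+ than in knockout Flk1- cells (-0.65). The 10 cardiac and lateral mesoderm markers summed to 546.0 in knockout and 1558 in control Flk1+ cells, and to 353.1 in knockout and 1251 in control Flk1- cells, and from 8 to 10 of them were above the floor, with Actc1 below it on both knockout arrays. The 10 feeder and fibroblast markers summed to 82.0 in knockout and 219.0 in control Flk1+ cells, and to 67.6 in knockout and 105.4 in control Flk1- cells, with from 2 to 5 of them above the floor and Col1a2, Dcn, Lum, Thy1 and Fap below it on all arrays. Both of these lists were lower in the knockout in both fractions. The part of these cell mixtures in the members' differences was not tested.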

How the data were processed

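RNA of 4 cell groups was measured on 1 Affymetrix array each. The deposited table holds 45141 probe sets as log2 values. RMA and limma are named, without versions, per the submitters' processing notes. Those values were taken as deposited. After 104 control probe sets were left out, 28898 probe sets had 1 gene in the annotation, 551 had more than 1 and stayed unnamed, and 15588 had none. The probe set brightest on average was read for each of 17097 genes. A gene counted where it was above the floor on at least 1 array compared, and differences were counted at 1.5-fold. The number of arrays limits the precision, and 1 array per group leaves no replicate error, p-value or depth to give. Members and lists were chosen with earlier results of these data known. Values on all arrays are given for the members with the largest difference of differences per role group (4, or 2 in small groups) and those 1.5-fold apart between genotypes or 2-fold between fractions, and for related lists the 3 genes furthest from 0 in the comparison described; others were named after their values were seen. Alternatives were other scalings (limma 3.58.1 in R 4.3.3), floors, folds and probe set rules. Calculations used Python 3.11.15 with pandas 2.3.3 and numpy 2.4.6, and were tested on simulated data.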

Additional observations from a re-analysis of the deposited data

Results flagged for a closer look

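The genotype difference had opposite signs in the 2 Flk1 fractions for the members as a whole. The members' median was -0.18 in Flk1+ cells and 0.17 in Flk1- cells, beside -0.05 and 0.04 for all genes above the floor. The same held for the median of each role group, each given for Flk1+ and then Flk1- cells. These were -0.22 and 0.12 for origin licensing and helicase genes, and -0.17 and 0.23 for polymerase and fork genes. They were -0.21 and 0.22 for nucleotide synthesis, -0.16 and 0.22 for S phase entry, and -0.27 and 0.19 for chromatin and checkpoint genes. In S phase entry only 1 of 3 genes, Ccne2, had opposite signs itself. E2f1 was lower in the knockout in both fractions and Ccne1 higher in both. For 7 single members both differences were larger than the SD between probe sets: Mcm4 (-0.27 and 0.23), Orc1 (-0.30 and 0.32), Rfc1 (-0.30 and 0.29), Pold1 (-0.33 and 0.35), Pole2 (-0.50 and 0.50), Ccne2 (-0.38 and 0.25) and Hells (-0.41 and 0.54). The share of all genes past this rule was not counted, so the number 7 cannot be judged against it. At any size, 30.3% of all genes were lower in the knockout in Flk1+ and higher in it in Flk1- cells. A second probe set above the floor gave 0.19 and -0.02 for Orc1, 0.17 and 0.60 for Hells, and -0.43 and 0.16 for Rfc1. With 1 array per group the difference between the fractions was not tested.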

How the results depend on the processing

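The members' median kept its sign in all 5 comparisons under every alternative run. It ranged from -0.19 to -0.10 for knockout minus control in Flk1+ cells, from 0.12 to 0.18 in Flk1- cells, from -0.47 to -0.29 for Flk1+ minus Flk1- in the knockout, from -0.10 to -0.050 in the control and from -0.38 to -0.25 for the difference of differences. Centring, cyclic loess and quantile normalization gave -0.12, -0.10 and -0.11 for the genotype difference in Flk1+ cells, -0.29, -0.31 and -0.31 for the knockout sort difference and -0.25, -0.25 and -0.26 for the difference of differences, and centring gave -0.050 for the control sort difference. At 1.5-fold the knockout sort comparison had 7, 7 and 8 members lower under those scalings and the difference of differences had 2 after centring, 5 after loess and 3 with probe sets averaged. Without probe sets ending in _s_at or _x_at, 1 member was 1.5-fold lower in knockout than in control Flk1+ cells. Past 0.32 on the log2 scale, counted in the deposited values only, 10 members were lower and 2 higher in knockout than in control Flk1+ cells. In Flk1- cells 6 were higher. In the sort comparisons 30 were lower and 1 higher in knockout Flk1+ than in knockout Flk1- cells, and 6 were lower and 2 higher in control Flk1+ than in control Flk1- cells. In the difference of differences 24 were below and 1 above 0. At 2-fold the corresponding counts were 2 lower in the knockout sort comparison, 0 for the difference of differences and 0 higher in knockout Flk1- cells. Signs turned for 2 groups of 3 genes: with the mean of probe sets, S phase entry was -0.37 and nucleotide synthesis -0.079 in the control sort comparison and nucleotide synthesis 0.0055 in the knockout one, and after loess S phase entry was 0.0072 in the difference of differences. Centring moved the split of all genes past 1.5-fold to 4.12% higher and 3.30% lower in Flk1+ cells, 2.25% and 3.19% in Flk1- cells, and 6.95% and 4.02% for the difference of differences. The cause of these moves was not tested. No paired analysis was possible because the groups compared share only replicate number 1, and no array could be left out of a group of 1. An additive model over genotype and fraction, which leaves 1 residual degree of freedom, was not fitted, since that residual is the difference of differences itself.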

Other observations

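Among 22 regulators of G1 and E2F family genes, 16 were lower in knockout than in control Flk1+ cells (57.4% of all genes), with a median of -0.29 beside -0.05 for all genes. The genes furthest from 0 were E2f8 (-0.83), the G1 kinase gene Cdk6 (-0.80) and Myc (-0.77). A second probe set above the floor gave -0.17 for E2f8 and -0.32 for Cdk6. In Flk1- cells 11 were higher and 11 lower, with a median of 0.0088 that turned to between -0.047 and -0.019 under the 3 other scalings. The genes furthest from 0 there were the kinase inhibitor gene Cdkn1c (-1.65), the D-type cyclin gene Ccnd2 (-1.31) and Myc (-0.77). Growth arrest and p53 target genes had a genotype median of -0.07 in Flk1+ cells, which was 0.022 after quantile normalization, 0.019 after loess and -0.0074 after centring, and one of 0.02 in Flk1- cells, which was between -0.037 and -0.017 under those scalings. Between the fractions, Flk1+ minus Flk1-, their medians were -0.37 in the knockout and -0.41 in the control. None of these differences was tested.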
